A study of Mus musculus with 8 samples.

Results

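ESC sites open at day 5 and absent at day 10 were stretches of chromatin with an accessibility peak in mouse embryonic stem cells (ESCs) and in reprogramming cells at day 5, but with no peak in the starting fibroblasts or in reprogramming cells at day 10. Peaks of the 4 groups lying within 400 bp of each other were merged into 101701 regions, and 730 of them showed this pattern. They are called members below. Members were chosen by these peak calls, so the pattern, and every peak score, fold enrichment or distance to a day 10 peak given for them, is a description and not a tested result.

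Accessibility was mapped by ATAC-seq, in which a transposase cuts open DNA and adds sequencing adapters to it, in 8 libraries of 4 groups with 2 libraries each. The groups were uninfected mouse embryonic fibroblasts (MEFs, day 0), MEFs at day 5 and at day 10 of reprogramming, and ESCs. The infected cells received pMXs retroviruses for OCT4, SOX2, KLF4 and MYC (OSKM) together with a FLAG control vector, and were moved to ESC medium with vitamin C. All 4 groups were labelled wild type, so none carried a knockout. MEFs, both OSKM groups and ESC replicate 2 carried the OG2 strain name (C57BL/6J-OG2, a line with a Pou5f1 reporter), whereas ESC replicate 1 was given as C57Bl6J. The labels placed ESCs on feeder fibroblasts and the study's methods placed the OG2 ESCs used for ATAC-seq on gelatin in 2i/L medium. No sorting of the infected cells was described for this assay. Medium and cell state therefore cannot be told apart in any comparison with ESCs.

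The deposited data were 1 peak list per group. The MEF list held 56514 peaks, the ESC list 48486, the day 5 list 36219 and the day 10 list 35226. The lists keep neither the replicates nor the reads apart, so depth is unknown, there is no replicate error for any value below, and intervals cover counting error over regions only. Regions are not replicates of a condition. Absent means that no interval was listed, not that the DNA was closed.

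When fibroblasts are reprogrammed, OCT4, SOX2 and KLF4 bind DNA at many places, including enhancers that ESCs use, while the fibroblast's own enhancers lose their open state over days. OCT4 and SOX2 often bind side by side on a joint octamer and SOX sequence, KLF factors bind GC-rich boxes with the core CACCC, and CTCF binds a long motif at insulators and loop anchors.

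The sequences below show what the members looked like. Each is the 200 bp around the midpoint of the ESC peak, plus strand, from the RefSeq GRCm38.p6 (mm10) assembly, with matches to 8 of the motifs searched in capitals (SOX, KLF, octamer, OCT-SOX composite, CTCF, TEAD, AP-1 and ESRRB, either strand). The first set holds members with matches to 2 or more kinds of OCT4, SOX or KLF motif, which can overlap. In the Dock5 window the octamer match lies inside the composite match, so they are a single stretch.
S1pr1 member, chr3:115695435-115695634, KLF, octamer, composite and TEAD matches, the last 3 overlapping: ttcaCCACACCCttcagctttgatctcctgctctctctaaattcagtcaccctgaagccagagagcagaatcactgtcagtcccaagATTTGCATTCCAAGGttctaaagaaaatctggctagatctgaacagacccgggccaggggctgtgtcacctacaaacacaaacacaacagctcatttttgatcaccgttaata
Tnfrsf19 member, chr14:60957834-60958033, 3 SOX matches and a composite: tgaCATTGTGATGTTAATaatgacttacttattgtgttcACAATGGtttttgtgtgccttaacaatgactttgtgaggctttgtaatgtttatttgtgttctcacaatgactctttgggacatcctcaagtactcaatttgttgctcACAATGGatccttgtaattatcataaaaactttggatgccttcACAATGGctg
Gm29395 member, chr9:94661835-94662034, octamer, composite and TEAD matches: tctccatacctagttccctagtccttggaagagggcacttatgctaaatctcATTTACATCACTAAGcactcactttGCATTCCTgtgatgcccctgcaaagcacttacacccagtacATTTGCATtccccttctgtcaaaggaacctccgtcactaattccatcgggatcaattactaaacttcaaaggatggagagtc
Ncam2 member, chr16:81481178-81481377, overlapping SOX and composite matches: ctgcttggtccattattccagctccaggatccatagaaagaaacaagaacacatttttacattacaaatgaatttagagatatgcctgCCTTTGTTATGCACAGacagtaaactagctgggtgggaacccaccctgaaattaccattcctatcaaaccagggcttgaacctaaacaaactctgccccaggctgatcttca
Dock5 member, chr14:67972326-67972525, KLF, octamer and composite matches: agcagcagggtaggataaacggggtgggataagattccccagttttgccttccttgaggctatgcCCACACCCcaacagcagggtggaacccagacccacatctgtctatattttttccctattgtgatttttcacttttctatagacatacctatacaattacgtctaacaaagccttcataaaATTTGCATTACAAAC

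The next pair came from 2 chromosomes and shared sequence on opposite strands, including a SOX match, which is taken up below with the repeats.
Gm36503 member, chr6:16627717-16627916: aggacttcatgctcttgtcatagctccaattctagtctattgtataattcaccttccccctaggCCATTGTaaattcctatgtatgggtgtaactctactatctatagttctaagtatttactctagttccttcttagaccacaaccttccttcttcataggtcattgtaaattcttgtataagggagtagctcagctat
Gm22369 member, chr19:9860837-9861036: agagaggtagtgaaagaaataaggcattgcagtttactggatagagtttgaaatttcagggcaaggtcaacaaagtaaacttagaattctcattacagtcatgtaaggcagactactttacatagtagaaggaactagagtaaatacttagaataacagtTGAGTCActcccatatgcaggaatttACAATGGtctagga

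The last set stands for members beside genes of the epithelial and pluripotency lists. The Cdh1 window held none of the 8 motifs, the Gipc3 window (48681 bp from a start site of Tjp3) 3 KLF matches and an ESRRB match, and the Aire window (894 bp from a start site of Dnmt3l) a CTCF and a TEAD match.
Cdh1 member, chr8:106603584-106603783: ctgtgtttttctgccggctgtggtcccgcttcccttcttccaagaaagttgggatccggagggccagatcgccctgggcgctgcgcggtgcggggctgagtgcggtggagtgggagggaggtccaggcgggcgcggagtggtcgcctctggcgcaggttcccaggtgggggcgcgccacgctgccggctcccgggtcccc
Gipc3 member, chr10:81340463-81340662: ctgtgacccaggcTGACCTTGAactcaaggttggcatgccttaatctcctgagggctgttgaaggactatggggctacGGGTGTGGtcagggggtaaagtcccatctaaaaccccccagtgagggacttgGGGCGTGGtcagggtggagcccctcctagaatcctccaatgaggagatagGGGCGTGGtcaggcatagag
Aire member, chr10:78043378-78043577: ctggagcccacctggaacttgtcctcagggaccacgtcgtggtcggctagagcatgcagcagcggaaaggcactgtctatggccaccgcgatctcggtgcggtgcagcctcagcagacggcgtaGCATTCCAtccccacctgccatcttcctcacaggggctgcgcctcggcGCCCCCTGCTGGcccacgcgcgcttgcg

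The members were 2.53% of the 28863 regions with an ESC peak and no MEF peak. The other 3 classes of those regions served for comparison: 2350 kept sites (peaks at both day 5 and day 10), 1273 sites first open at day 10 and 24510 sites open on neither day. Over all 101701 regions, 8.74% had a day 5 peak and no day 10 peak. Of the 3080 ESC sites without a MEF peak that had a day 5 peak, 23.7% lacked one at day 10, next to 4.87% of the 14791 day 5 regions found in both MEFs and ESCs, 28.6% of the 5271 found in MEFs and not ESCs and 46.0% of the 12901 found in neither. Of all 36043 day 5 regions the share was 24.7%. These shares are the rule's own values and carry no test.

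Each member held exactly 1 day 5 peak and 1 ESC peak, a count that the spacing of the lists left little room to vary. Peaks were at least 1065 bp apart within the day 5 list and 1105 bp within the ESC list, beyond the 400 bp merging limit. The day 5 and ESC peaks overlapped in 675 members (92.5%), and in 328 (44.9%) the shared stretch covered at least 50% of both. In the remaining 55 members they lay side by side within 400 bp. The day 5 peak lay wholly inside the ESC peak in 313 members (42.9%), the ESC peak was the wider in 546 (74.8%), and the midpoints were a median 125 bp apart. Kept sites had much the same offset (median 124.5 bp), with overlapping peaks in 95.1% and a shared stretch of at least 50% of both peaks in 57.02%. Member regions spanned 223 to 3053 bp with a median of 714.5 bp.

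The day 5 peaks of members were low in their list, while their ESC peaks were of middling rank. Ranks are given as the percentage of the list with the same or a lower score. The median day 5 percentile was 25.9 (quartiles 10.2 and 44.3) and the median ESC percentile 52.1 (28.4 and 75.8), against 55.5 and 61.9 in kept sites. Sites first open at day 10 likewise had a low median percentile in the day 10 list, 23.1, and 50.75 in the ESC list. The authors' fold enrichment over background had a median of 3.34 at day 5 and 3.57 in ESCs in members, and 3.88 and 3.68 in kept sites. The median width of the day 5 peak was 374 bp in members and 595 bp in kept sites. In 558 members (76.4%) the ESC peak ranked above the day 5 peak.

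Only 77 members (10.5%) had both peaks in the upper 50% of their lists, 301 (41.2%) had a day 5 peak in the lower and an ESC peak in the upper 50%, 50 (6.85%) the reverse, and 302 (41.4%) had both in the lower 50%. The share of ESC sites open at day 5 that lacked a day 10 peak was 42.2% (353 of 836) for day 5 percentiles up to 25, 31.3% (250 of 798) from 25 to 50, 14.1% (107 of 760) from 50 to 75 and 2.92% (20 of 686) above 75. The part of the peak caller's threshold in these shares was not tested.

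**Figure D1:**
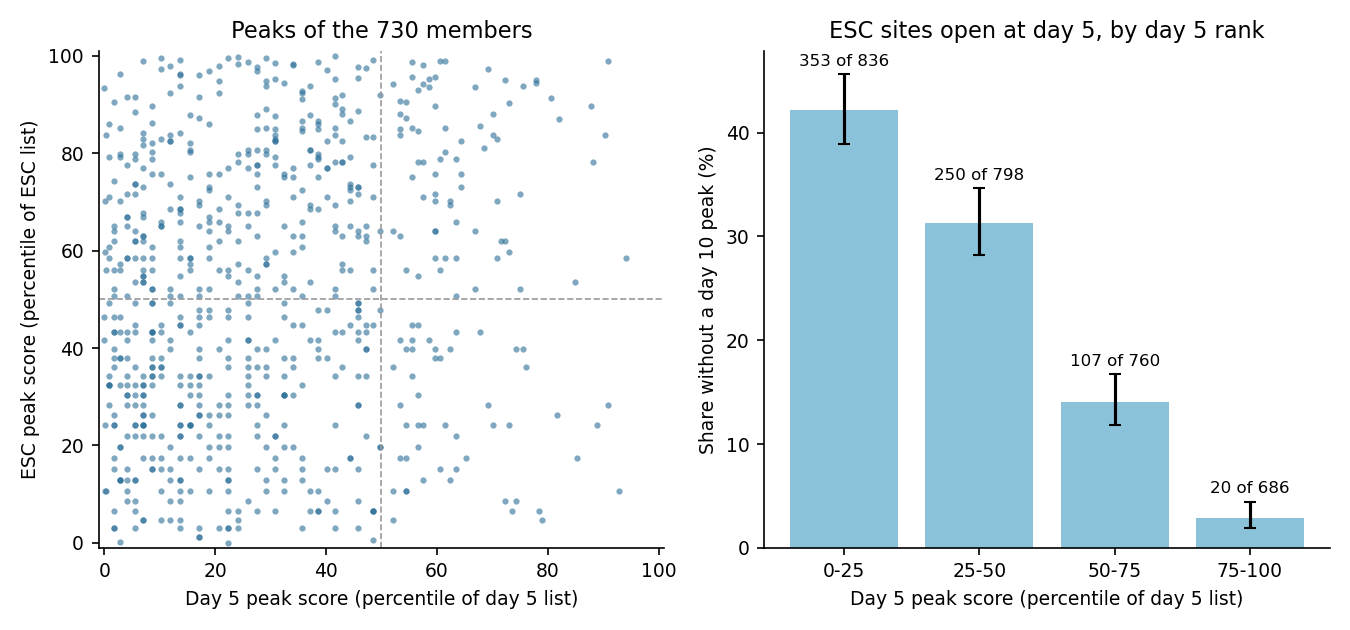
Left, the score percentile of the day 5 peak (x axis) and of the ESC peak (y axis) of each of the 730 members, 1 point a member, with dashed lines at 50. Right, the share (%) of ESC sites with a day 5 peak and no MEF peak that had no day 10 peak, by day 5 score percentile, with 95% Wilson intervals and counts; it falls from 42.2% to 2.92%.

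The 10 members whose weaker peak ranked highest were spread over 9 chromosomes, 8 of them between genes and 2 in introns. The first was chr3:115694959-115695973, 19099 bp from the start site of S1pr1, a receptor for the lipid sphingosine-1-phosphate, with a fold enrichment of 4.84 at day 5 (score 112, percentile 90.9) and 5.30 in ESCs (score 196, percentile 98.9). Its nearest day 10 peak was 1647 bp away and its nearest MEF peak 3209 bp. The member at chr14:60957487-60958380, 17505 bp from Tnfrsf19, a receptor of the tumour necrosis factor family, had 5.48 at day 5 and 4.78 in ESCs.

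Distances from these members to other features varied widely. The member at chr3:16887885-16889091 (5.52 at day 5 and 4.26 in ESCs) was 659049 bp from the nearest day 10 peak and 704649 bp from the nearest protein-coding start site, that of Ythdf3, which encodes a reader of methylated RNA, but 93787 bp from a MEF peak and 64573 bp from the start site of Gm26485. The member at chr6:16627220-16628413 (4.15 and 4.63) was 304974 bp from a day 10 peak and 42870 bp from a MEF peak. The intronic pair were chr18:13712244-13713006 (5.13 and 5.11) in Zfp521, which encodes a zinc finger protein, and chr1:55198609-55199093 (4.85 and 4.56) in Rftn2. The remaining 4 were intergenic, nearest to the protein-coding genes Msl3l2 on chromosome 10, Fbxl4 on chromosome 4, Prl2c3 on chromosome 13 and Scgb2a2 on chromosome 19, with day 5 folds from 4.28 to 5.15 and ESC folds from 4.08 to 5.87.

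At the other end, 3 members had the lowest day 5 score of the list, 10. They lay in an intron of Ror2, a receptor of the Wnt pathway (chr13:53234535-53235561, fold 2.52 at day 5 and 3.29 in ESCs), at the start of the pseudogene Cyp2c52-ps (chr19:38975851-38976943, 2.43 and 4.06) and 8506 bp from Ube2k, a ubiquitin-conjugating enzyme gene (chr5:65600102-65601154, 2.48 and 3.16). At Ror2 and Ube2k the day 5 and ESC peaks did not overlap.

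The nearest day 10 peak was usually far away. The distance had a median of 23716 bp and ran from 437 bp to 1364721 bp. A day 10 peak lay within 1 kb of 3 members, within 5 kb of 103 (14.1%), within 10 kb of 193 (26.4%) and within 50 kb of 532 (72.9%). For sites open on neither day, 13.7% had a day 10 peak within 5 kb and 29.3% within 10 kb.

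The 3 members just inside the limit were chr14:99457399-99458194 (437 bp from a day 10 peak), chr11:54201735-54202730 in an intron of 4933405E24Rik (915 bp) and chr8:95949681-95950794 (921 bp). Just outside it, 8 kept sites had a day 10 peak that did not overlap the day 5 peak, the widest gaps being 365 bp at chr7:51627045-51628403, 272 bp at chr2:140853254-140854511 and 231 bp at chr13:32806748-32807787. With peaks merged within 0 bp there were 686 members and within 1000 bp 767.

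**Figure D2:**
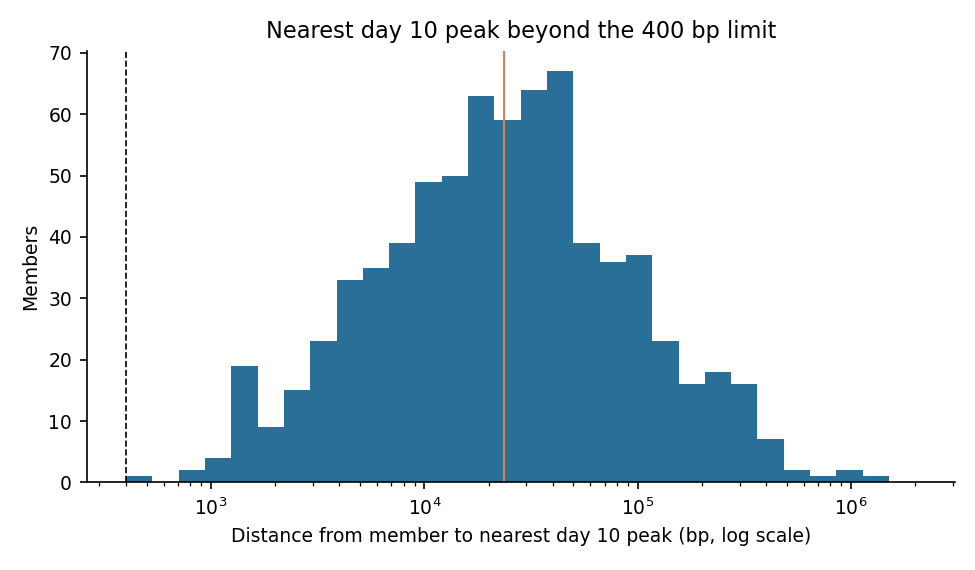
Number of members (y axis) by distance in bp to the nearest day 10 peak (x axis, log scale). The dashed line is the 400 bp limit and the coloured line the median, 23716 bp; few members lie near the limit.

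Neighbours of the members are given as counts only, and the classes differ in size, from 730 members to 24510 sites open on neither day. Another member lay within 10 kb of 4 members and within 50 kb of 30 (4.11%). A kept site lay within 10 kb of 15 members (2.05%) and a site first open at day 10 within 10 kb of 5 (0.685%), while an ESC site open on neither day lay within 10 kb of 159 (21.8%) and within 50 kb of 517 (70.8%). They were found on every chromosome except Y, from 13 on chromosome 19 to 66 on chromosome 1. Their share among ESC sites open at day 5 ran from 16.5% on chromosome 12 (23 members) to 28.7% on chromosome 18 (33 members).

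The first tested comparison asked whether the members lay elsewhere in the genome than other ESC sites. A start site of an annotated transcript lay within 5 kb of 27.5% of members (95% Wilson interval 24.4% to 30.9%), of 30.0% of kept sites, of 36.3% of sites first open at day 10 and of 29.6% of sites open on neither day. The difference from kept sites was -2.47 percentage points (Newcombe 95% interval -6.11 to 1.35) and that from neither day -2.03 (-5.19 to 1.37), so neither was distinguishable from 0. Members lay less often near a start site than sites first open at day 10, by -8.76 points (-12.9 to -4.52). Within 1 kb the shares were 11.6% in members, 11.7% in kept sites and 17.0% in sites first open at day 10 (difference -5.40, -8.44 to -2.20). The difference from kept sites excluded 0 in 1 of 10 other settings, at -4.43 with lists cut to equal length. Among members the share within 5 kb was 16.5% for the 127 whose day 5 peak ranked above the middle of its list. For the 603 ranked lower it was 29.85%. The day 5 peak ranked above the middle in 17.4% of members and 56.1% of kept sites. The part of peak rank in the start-site difference from kept sites was not tested. Intervals on start sites and repeats were not adjusted for the 9 differences of this kind, of which 4 excluded 0.

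By the midpoint of the ESC peak, 366 members (50.1%) were intergenic, 314 (43.0%) intronic and 50 (6.85%) exonic. Kept sites were intergenic in 42.6%, intronic in 50.3% and exonic in 7.02%. Members were intergenic more often, by 7.50 points (3.36 to 11.6), and intronic less often, by -7.33 points (-11.4 to -3.18), whereas exons differed by -0.172 points (-2.13 to 2.11). This split was computed after the other values were seen.

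Distances to MEF peaks, which the rule used up to 400 bp, are given without a test. A MEF peak lay within 5 kb of 27.0% of members, 25.4% of kept sites, 28.7% of sites first open at day 10 and 22.6% of sites open on neither day. One lay within 10 kb of 41.2% of members, 46.7% of kept sites, 51.5% of sites first open at day 10 and 41.8% of sites open on neither day. The order of members and kept sites was thus opposite at the 2 limits.

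Windows that were mostly repeat sequence (at least 50% of the 200 bp marked as repeat in the assembly) made up 18.8% of members (16.1% to 21.8%), 15.9% of kept sites, 11.9% of sites first open at day 10 and 22.7% of sites open on neither day. Members exceeded sites first open at day 10 by 6.83 points (3.56 to 10.3) and lay below sites open on neither day by -3.96 (-6.68 to -0.924). The difference from kept sites, 2.85 points (-0.224 to 6.17), did not exclude 0, but it did in 7 of 11 other settings, where it ran from 3.44 to 7.82. Over all regions the share was 9.96%. The members had a median GC content of 44.5% (26% to 75%) next to 45% in kept sites, 48% in sites first open at day 10 and 47% in sites open on neither day.

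**Figure D3:**
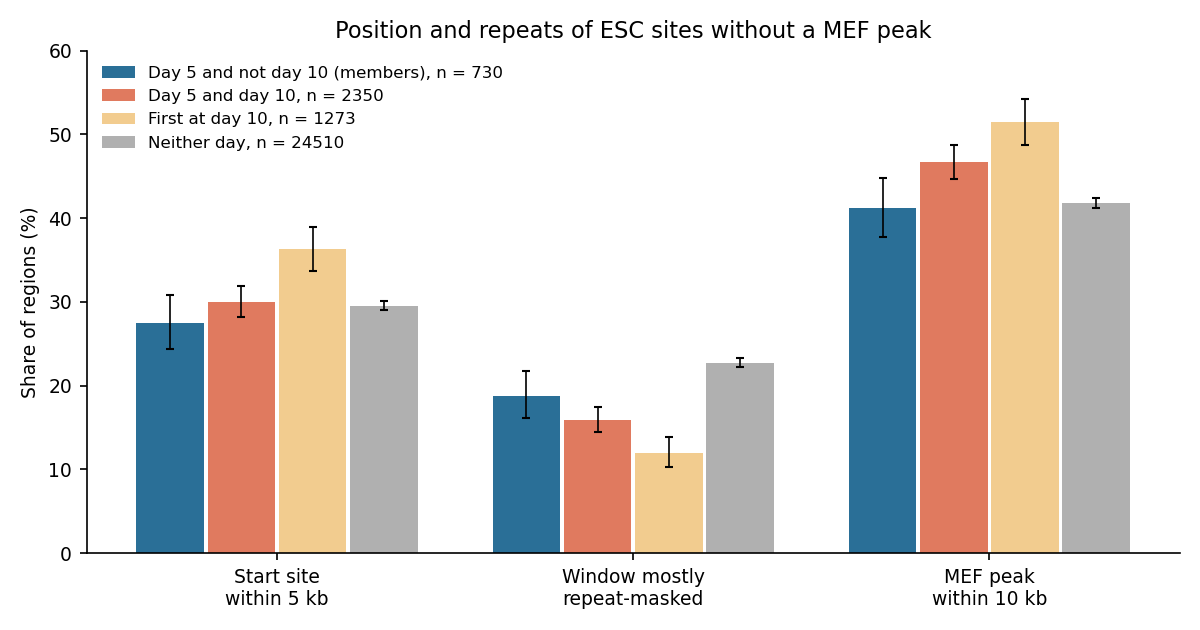
Share of regions (%) with a start site within 5 kb, with a window mostly repeat-masked and with a MEF peak within 10 kb, for members and the 3 other classes of ESC sites; bars are shares and lines 95% Wilson intervals. Members (27.5%, 18.8% and 41.2%) lie on the same side of sites first open at day 10 as kept sites do in all 3 measures.

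Some members shared sequence with each other or with other ESC sites. Windows were called related when they shared at least 20 of their 191 overlapping words of 10 bases on either strand, simple repeats left out, a measure chosen after the windows had been seen. A related window was found among the 28863 ESC sites for 152 members (20.8%, 18.03% to 23.9%), for 16.8% of kept sites (difference 4.01 points, 0.815 to 7.43), for 12.96% of sites first open at day 10 (7.86, 4.45 to 11.4) and for 24.6% of sites open on neither day (-3.77, -6.61 to -0.632). Among the members themselves, 80 were related to at least 1 other member, in 326 pairs. A relation always joins 2 windows, so being related is not independent between windows. The intervals in this paragraph treated windows as independent and may be too narrow. With at least 30 words the difference from kept sites was 2.39 points (-0.459 to 5.51) and no longer excluded 0, and with at least 12 it was 6.60 (2.99 to 10.4), while the difference from sites open on neither day became -3.17 (-6.39 to 0.271).

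The largest of 96 groups of related windows held 681 ESC sites, 29 of them members on 13 chromosomes, with a median of 98.5% of the window marked as repeat. Of its windows 507 (74.4%) held a SOX match, as did 19 of the 29 members. The Gm36503 window printed above belonged to it and was related to 362 ESC site windows, and the Gm22369 window was related to 62 without being placed in that group. The group made up 3.97% of members, 3.28% of kept sites (difference 0.696 points, -0.740 to 2.49), 2.36% of sites first open at day 10 (1.62, 0.0675 to 3.43) and 2.22% of sites open on neither day (1.75, 0.541 to 3.43). Such copies of 1 sequence are not independent of each other, and reads of near-identical copies can be lost or misplaced in mapping. The intervals for this group treated them as independent and were not adjusted for the 96 groups or the 3 classes. No repeat family is named here, since the files used carry no repeat annotation.

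The next comparison asked which factor motifs the members held. In total 14 motifs were searched on both strands. They were CCATTGT or CCTTTGT for SOX factors, CCACACCC, CCACGCCC, CCCCACCC or CCCCGCCC for KLF factors, ATGCAAAT for the octamer of OCT4, ACATTCCA, ACATTCCT, GCATTCCA or GCATTCCT for TEAD, TGACTCA or TGAGTCA for AP-1 and TCAAGGTCA for ESRRB. Further ones were TGTGGTTA or TGTGGTTT for RUNX, CACGTG for the E-box, TTCCNGGAA for STAT, AACCNGTT for GRHL, GCCTNAGGC for AP-2, TTGCACAA or TTGCGCAA for C/EBP, a CTCF motif of 12 letters and an OCT-SOX composite of 15 letters with up to 2 mismatches, which overlaps the octamer and SOX motifs. A match is a stretch of letters, not a bound site.

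Members held SOX, KLF, TEAD, composite and CTCF matches more often at the ESC peak than 1 kb away. The shares of these motifs were also higher at the peak in each of the other classes, where no test was made. In kept sites SOX stood in 21.1% against 7.21% of flanks, KLF in 12.3% against 5.45% and TEAD in 6.72% against 3.43%. The composite stood there in 4.64% against 0.553% and CTCF in 1.06% against 0.106%. A SOX match stood in 125 members (17.1%), against 6.78% of the 200 bp windows 1 kb to either side (difference 10.3 points, 6.07 to 15.1, adjusted over the 14 motifs). A KLF match stood in 85 (11.6% against 4.11%, difference 7.53, 4.01 to 11.6) and a TEAD match in 57 (7.81% against 3.15%, 4.66, 1.73 to 8.23). The composite stood in 23 (3.15% against 0.616%, 2.53, 0.836 to 5.05) and CTCF in 16 (2.19% against 0.00%, with no match in the flanks, 2.19, 0.937 to 4.41). For the other 9 motifs the interval included 0, among them the octamer with 17 members (2.33% against 1.37%) and AP-1, the motif of factors that hold open many fibroblast enhancers, with 26 (3.56% against 3.15%). In the 200 bp around the day 5 peak, AP-1 stood in 52 members (7.12%) and in 5.02% of kept sites. This comparison with the flanks was added after the values were seen. Its intervals pooled the flanks of both sides and treated them as independent of the centre windows. Centre and flanks come from the same members, and this pairing was not used.

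Read against all 101701 regions, with the window on the widest peak of any group, SOX matches stood in 10.1%, KLF in 11.1%, TEAD in 6.83%, AP-1 in 11.4%, the composite in 1.46%, the octamer in 2.19% and CTCF in 1.12%. No test was made of these, since the members are part of all regions.

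None of the 14 motifs separated the members from kept sites, from sites first open at day 10 or from sites open on neither day once intervals were adjusted over the 42 comparisons (99.88% Newcombe intervals). Of the unadjusted 95% intervals 7 excluded 0. SOX matches stood in 17.1% of members, 21.1% of kept sites, 14.2% of sites first open at day 10 and 13.9% of sites open on neither day. The difference from kept sites was -3.98 points (adjusted interval -8.93 to 1.63, unadjusted 95% interval -7.05 to -0.667) and that from neither day 3.26 (-0.855 to 8.28, unadjusted 0.659 to 6.19). For KLF the shares were 11.6%, 12.3%, 15.8% and 9.59%, and the difference from sites first open at day 10 was -4.15 points (-9.03 to 1.20, unadjusted -7.14 to -0.982). For the composite they were 3.15%, 4.64%, 2.91% and 2.11%. These intervals leave room for differences of several points either way.

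CTCF passed the adjusted interval against kept sites in 4 of the 12 other settings, with more matches in members each time. At the ESC peak it stood in 2.19% of member windows, 1.06% of kept, 1.57% of first open at day 10 and 1.10% of neither, with differences of 1.13 points from kept sites (adjusted -0.388 to 3.73, unadjusted 0.151 to 2.51) and 1.09 from neither day (-0.126 to 3.65, unadjusted 0.241 to 2.44). In the 200 bp around the day 5 peak it stood in 2.47% of members and 0.638% of kept sites (difference 1.83, adjusted 0.311 to 4.49). In that window 7 of the 14 unadjusted intervals against kept sites excluded 0, with AP-1 (2.10 points, 0.194 to 4.35), ESRRB and CTCF higher in members and KLF (-3.255, -5.91 to -0.323), the octamer, TEAD and the composite lower, but only that of CTCF after adjustment. It also passed against kept sites for windows of 400 bp (3.70% against 1.62%), for whole ESC peaks (4.52% against 2.04%) and where peaks had to cover each other by 50% (3.84% against 1.09%). In all, 26 members had a CTCF match in either window and 8 in both. The 16 members with a match at the ESC peak had a median GC content of 51.8%, and 18.8% of them lay within 5 kb of a start site. All 16 had a day 5 peak in the lower 50% of its list, as did 603 of all 730 members. The day 5 peak was in the upper 50% in 17.4% of members and 56.1% of kept sites. The part of peak rank in the CTCF differences was not tested.

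**Figure D4:**
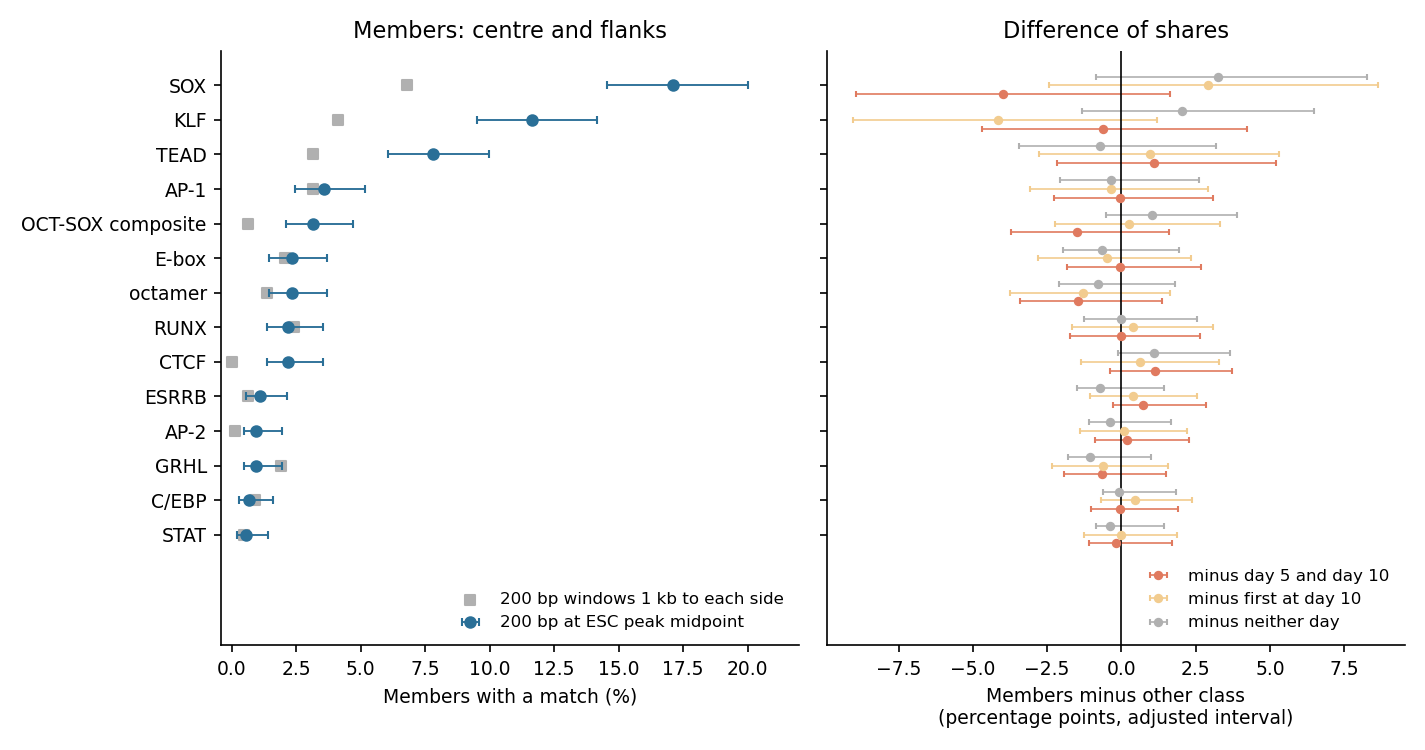
Left, share of members (%) with a match to each motif in the 200 bp at the ESC peak midpoint (circles, 95% Wilson intervals) and in windows 1 kb to each side (squares). Right, members minus each other class in percentage points with intervals adjusted over the 42 comparisons; every interval includes 0.

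Motif shares within subsets of the members are a description, with no difference tested. Of the members with an ESC peak in the upper 50% of its list, 22.8% (86 of 378) held a SOX match, and of the rest 11.1% (39 of 352). Kept sites showed 23.9% and 16.8%. The composite stood in 4.50% and 1.70% of members, KLF in 9.79% and 13.6%. CTCF stood in 1.32% and 3.125% of members and in 0.910% and 1.30% of kept sites. It stood in 0.617% and 2.56% of sites first open at day 10, and in 0.55% and 1.47% of sites open on neither day. Mostly repeat-masked members held SOX in 27.0% and the others in 14.8%. Without the largest group of related windows, SOX stood in 15.1% of members, 19.05% of kept sites, 12.55% of sites first open at day 10 and 12.5% of sites open on neither day. Within 5 kb of a start site KLF stood in 15.9% of members and SOX in 12.4%, and farther away in 10.0% and 18.9%.

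At least 1 of the SOX, KLF, octamer and composite motifs stood in 224 members (30.7%), at least 2 kinds in 23 (3.15%), and 413 (56.6%) held none of the 14 motifs searched. Since the composite overlaps the octamer and SOX motifs, 1 stretch can count as 2 kinds, as in the Ncam2 window. Both SOX and KLF stood in 14 of those 23 members. The 10 highest-ranked of those 23 began with the S1pr1 and Tnfrsf19 members. Next came the member 6306 bp from Gm29395 and 7397 bp from Slc9a9, a sodium and proton exchanger gene (chr9:94661357-94662512, fold 4.03 at day 5 and 4.71 in ESCs), and an intronic one of Ncam2, a neural adhesion gene (chr16:81480830-81481726, 3.92 and 6.10). The others lay in introns of Gtdc1 and Abcb1b, a drug efflux pump gene, in an exon of the non-coding gene C130071C03Rik (this member was 87817 bp from a start site of Mef2c), and between genes, with Fam71f2, Sdr16c6 and Dock5 as the nearest. Their day 5 folds ran from 2.80 to 3.89 and their ESC folds from 3.22 to 4.26.

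The last question was which genes lay beside the members. A member lay within 50 kb of a start site of 871 of 21924 protein-coding genes (3.97%), of which 849 had 1 member, 21 had 2 and Rttn, a gene of centriole assembly on chromosome 18, had 3. Cdh1 was among those with 2. Of the 254 genes of 9 lists chosen for this tissue and treatment, 18 (7.09%) had a member. Kept sites lay that near 11.7% of all protein-coding genes and sites open on neither day near 67.9%. The lists were not matched for how many ESC sites surround their genes.

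Of 42 pluripotency genes 4 had a member (9.52%), while 14 had a kept site (33.3%) and 41 (97.6%) an ESC site open on neither day. The member of Tbx3, a factor of the ESC network, covered a start site and an exon (chr5:119679962-119682149, fold 2.84 at day 5 and 2.41 in ESCs). That of Dnmt3l, a cofactor of DNA methylation, lay 894 bp from its start site and covered a start site and an exon of the neighbouring Aire (chr10:78043181-78043796, 3.30 and 3.47). That of Jam2, a junction adhesion gene, was intronic, 4306 bp from a start site (chr16:84778692-84780051, 2.83 and 2.99). That of Lefty1, an inhibitor of Nodal signalling, lay 43376 bp away in an intron of Ephx1 (chr1:180980247-180981723, 3.18 and 3.32). All 4 had day 5 percentiles below 25, from 11.9 to 24.2, and only Lefty1 also had a kept site within 50 kb.

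Of 31 epithelial genes 3 had members (9.68%), while 8 had a kept site (25.8%) and 28 (90.3%) an ESC site open on neither day. Cdh1, the gene of the adhesion protein E-cadherin, had 2. At a start site lay chr8:106603271-106604096 (fold 3.16 at day 5 and 2.87 in ESCs, with a GC content of 71.5%). Its percentiles were low, 17.2 at day 5 and 34.3 in ESCs. In an intron 40249 bp on lay chr8:106644392-106645317 (3.45 and 3.16, percentiles 38.6 and 47.8). A kept site also lay within 50 kb of Cdh1. Grhl1, a factor of epithelial barriers, had a member 6161 bp from a start site (chr12:24565360-24566122, 3.60 and 3.35), 5545 bp from a day 10 peak, as well as 1 kept site. Tjp3, a tight junction gene, had one 48681 bp away in an intron of Gipc3 (chr10:81340262-81340864, 3.40 and 3.83). The day 5 percentiles of the Grhl1 and Tjp3 members were 47.15 and 42.9.

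The Wnt list had the highest share of the 9 lists. Of its 25 genes 4 had a member (16.0%), 9 a kept site (36.0%) and 23 (92.0%) an ESC site open on neither day. Over all protein-coding genes these shares were 3.97%, 11.7% and 67.9%. The 4 with a member were Axin2, a feedback inhibitor of the pathway, the receptor genes Fzd5 and Lrp6, and Sp8, a transcription factor. The Sp8 member covered an exon 918 bp from a start site (chr12:118848504-118850211, 2.61 and 3.02). The Axin2 member lay 9455 bp from a start site. Those of Fzd5 and Lrp6 lay 42248 bp and 39442 bp away, both in introns of other genes. Of 24 Nodal and BMP genes 2 had a member (8.33%), both receptors of activin (Acvr2a and Acvr2b), and 1 had a kept site. The Acvr2a member lay 16130 bp from its start site, and the Acvr2b member 26133 bp away in an intron of another gene. Of 44 lineage factors 2 had one (4.55%), Pax8 and Sox17, an endoderm factor whose member covered a start site and an exon (chr1:4491787-4493667, 2.57 and 3.20). The Pax8 member lay 13469 bp away in an exon of another gene, and its day 5 and ESC peaks did not overlap. Of 29 chromatin genes 2 had one (6.90%), Dnmt3b (36355 bp away) and Eed (25912 bp away). Of 28 mesenchymal genes 1 had one (3.57%), Col1a2, and none of the 12 LIF and STAT3 or the 21 FGF and ERK genes did. Among the members of this paragraph, day 5 percentiles were above 50 for Fzd5 (62.4) and Dnmt3b (66.8) only. They were lowest for Acvr2b (0.873), Acvr2a (2.92), Sox17 (5.47), Sp8 (6.91) and Col1a2 (6.91). Of the 18 genes 4 also had a kept site within 50 kb. Over the 9 lists the share of genes with a kept site ran from 4.17% (Nodal and BMP) to 36.0% (Wnt). Over all protein-coding genes it was 11.7%. No difference between these was tested.

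**Figure D5:**
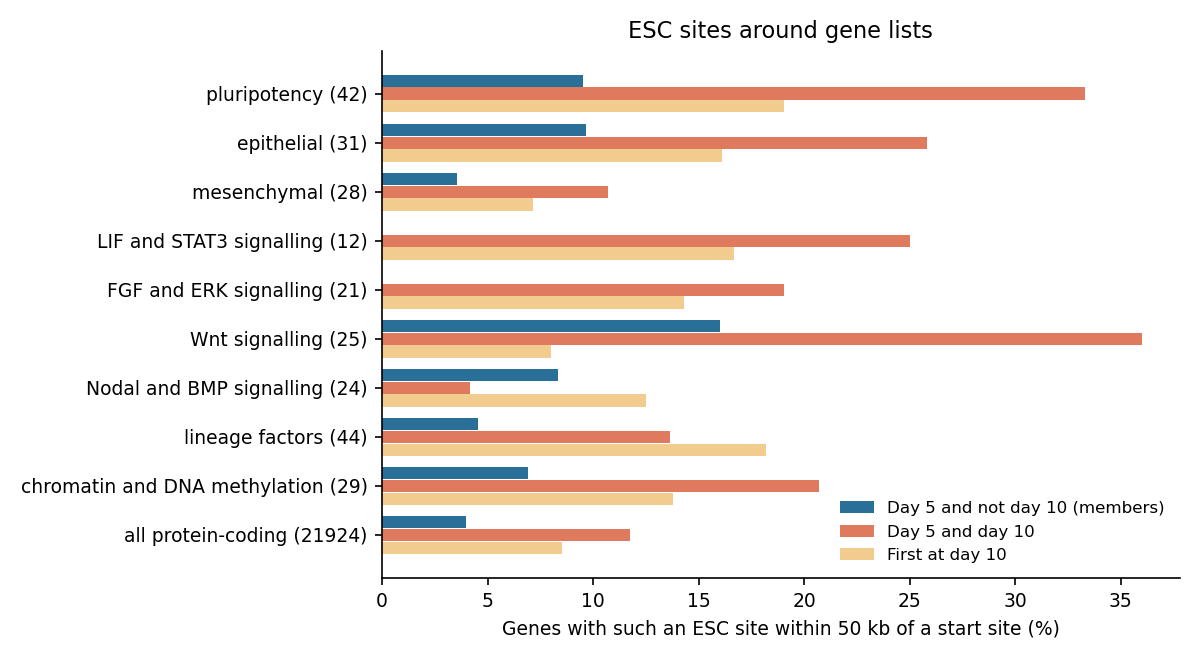
Share of genes (%) with a member, a kept site or a site first open at day 10 within 50 kb of a start site, for each list (number of genes in brackets) and for all 21924 protein-coding genes. The member share runs from 0% of the LIF and STAT3 and the FGF and ERK lists to 16.0% of the Wnt list, with 3.97% for all protein-coding genes.

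Among the members 43 held a start site of any transcript and 31 one of a protein-coding gene. Those within 5 kb of a start site had a median GC content of 48.0% and the others of 44.0%, and their median ESC percentiles were 46.4 and 54.8.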

How the data were processed

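Reads of 8 ATAC-seq libraries had been mapped to mm10 by the authors with bowtie2 (Bowtie2 2.2.0 in the submitters' processing notes) and filtered for mapping quality, unique position and mitochondrial origin; the peak caller was not given in the sources used here. The authors deposited 1 headerless broad-peak list per group, giving for every peak a score, its fold over background (a ratio) and −log10 p- and q-values, the smallest −log10 q at or above 1.012. The lists look like replicate 1 peaks intersected with replicate 2 peaks, which was stated nowhere, so a score may belong to a wider peak than the listed interval. No column belonged to other samples (0 columns).

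Regions, distances, motif matches, shares with 95% Wilson intervals and differences with Newcombe intervals were computed in Python 3.11.15 (numpy 2.4.6, pandas 2.3.3, scipy 1.17.1, matplotlib 3.10.9) against GRCm38 and GENCODE M21, with scripts tested on simulated data. Distances run from the region's edge. A difference was called when its interval excluded 0, and values the rule used were not tested. Members, lists, motifs and tests were chosen with earlier results of these data known. Regions were named by rule: the 10 members with the highest rank of their weaker peak, the 3 with the lowest day 5 score, the 3 nearest a day 10 peak, the 10 highest-ranked with 2 or more of the octamer, SOX, KLF and composite motifs, and those within 5 kb of a list gene (50 kb for pluripotency and epithelial genes), with their nearest genes. Related windows, flanks and the split by gene part were added after seeing the data. Alternatives changed the merging, the peaks kept, the overlap, the start sites and the window. No peak past a chromosome end was found.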

Additional observations from a re-analysis of the deposited data

How the results depend on the processing

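No paired analysis was possible because each group was deposited as 1 list that keeps no replicates apart, and for the same reason no replicate could be left out. The count of 730 members stayed within 1.5 times under 6 of 8 alternatives and fell to 411 with the higher-scoring 50% of each list and to 339 where peaks had to cover 50% of each other. The share near a start site was 31.5% when each list was cut to its top 35000 peaks, 23.6% without members that had a day 10 peak within 5 kb, 11.6% within 1 kb, 43.7% within 10 kb and 17.5% for protein-coding start sites. Its difference from kept sites was negative under all 11 alternatives, from -6.40 to -0.0157 points, and excluded 0 at -4.43 with the 35000 peaks. Leaving out members near a day 10 peak trims only the members, since every kept site has a day 10 peak by rule, so its values (-6.40 here, 4.34 for repeats) test nothing. The repeat share was 21.9% with the higher-scoring 50% and 16.0% with the 35000 peaks. Its difference from kept sites was positive under all 12 and excluded 0 under 7 of the other 11, at 3.96 with merging within 0 bp, 3.44 within 1000 bp, 7.82 with the higher-scoring 50%, 3.98 by direct overlap, 3.51 in 400 bp, 4.82 at the day 5 peak and 4.98 over whole ESC peaks.

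The count of motifs that differed, 0 in each comparison, became 1 against kept sites with the 35000 peaks (ESRRB), with 50% overlap, in 400 bp and at the day 5 peak (CTCF in each), and 2 over whole peaks (CTCF, and SOX at 39.2% against 46.85%). Against sites first open at day 10 it became 1 with the higher-scoring 50% (SOX, 24.3% against 14.65%), with 50% overlap (CTCF), and in 400 bp and over whole peaks (KLF). Against sites open on neither day it became 1 with the higher-scoring 50% (SOX), the 35000 peaks, 50% overlap and the same trimming of members alone (CTCF in each), 2 in 400 bp and 4 over whole peaks (SOX, KLF, CTCF and the composite). Whole ESC peaks had a median width of 579.5 bp in members and 682.5 bp in kept sites. It was 629 bp in sites first open at day 10 and 502 bp in sites open on neither day. Neither the part of width nor any other cause was tested. The share of members related to another ESC site window, 20.8%, was 28.8% with 12 shared words and 15.8% with 30, alternatives chosen after seeing the data. Depth is unknown, so whether a shallower day 10 list lacks weak sites could not be measured.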
